A study of Mus musculus with 15 samples.

Results

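The keratin-associated protein genes (Krtap) were examined in the skin of marrow-transplanted mice that model sclerodermatous chronic graft-versus-host disease, a hardening of the skin caused by immune cells of the donor. Members were all genes of the deposited table whose identifier maps to a symbol that begins with Krtap and that held at least 10 estimated counts over the 15 libraries. The rule took 58 of the 56059 genes in the table. It used no contrast between groups.

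Skin RNA was sequenced in 4 groups. The combination group consisted of allogeneic recipients given both Wnt-C59 (5 mg/kg) and belumosudil (150 mg/kg, n = 4). The Wnt-C59 group consisted of allogeneic recipients given Wnt-C59 alone at 5 mg/kg (n = 4). The allogeneic group (n = 3) and the syngeneic group (n = 4) received the vehicle, 0.4% methylcellulose. All recipients had a marrow transplant, and all were dosed by mouth each day between day 21 and day 49 after it. Belumosudil blocks ROCK2, a kinase of the cytoskeleton, and Wnt-C59 blocks porcupine, without whose lipid modification Wnt proteins are not secreted. The labels used here give no strain, age, sex or body site. Treated libraries are named by the numbers in their column names (Wnt-C59 1, 2, 4 and 5, and Combination 2, 3, 4 and 5), and the combination columns were matched to their group because no other group was left.

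Keratin-associated proteins fill the space between the keratin filaments of the hair shaft and are cross-linked with them, largely through disulfide bonds. Their genes carry little or no intron sequence, lie in clusters and are switched on in the hardening cells of the shaft, the cortex and cuticle, above the matrix of a growing follicle. They are sorted by the amino acids that dominate the protein into high-sulfur, ultra-high-sulfur and high glycine-tyrosine subfamilies. The Krtap6, Krtap7, Krtap8, Krtap19, Krtap20, Krtap21 and Krtap22 genes and Krtap16-3 are the high glycine-tyrosine members, and they numbered 17. The other 41 members include the high-sulfur Krtap1, Krtap2, Krtap3, Krtap11 and Krtap13 genes and the ultra-high-sulfur Krtap4, Krtap5, Krtap9 and Krtap17 genes. The 58 members belong to 27 numbered subfamilies and sit on chromosome 16 (25 members), chromosome 11 (23), chromosome 7 (5), chromosome 10 (3) and chromosome 1 (2).

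Most members have a TATA box shortly before the start, and no link between promoters and levels was tested. RefSeq (build GRCm38.p6) listed a promoter for 51 of the 58 members. TATAA stood on the sense strand within the last 50 bases before the start in 40 of the 51 (78.4%), against 5.33% of the 27025 promoters in the table. The longer TATAAA was present in 34 of 51 members (66.7%) and in 2.88% of all promoters. CTTTGA or CTTTGT, core letters of the LEF/TCF motif, stood on either strand of the 250 bases before the start in 24 of 51 members (47.1%) and in 27.7% of all promoters. CCAAT, searched the same way, was present in 33.3% of members and 34.5% of all promoters. Such matches describe letters and not binding. The 100 bases before the start are printed 5′ to 3′ for 9 members on which the results below turn, with TATAA in capitals where it lies in the last 50 bases.
Krtap8-1: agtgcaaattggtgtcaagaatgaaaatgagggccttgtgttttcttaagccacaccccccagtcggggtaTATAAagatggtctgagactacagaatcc
Krtap11-1: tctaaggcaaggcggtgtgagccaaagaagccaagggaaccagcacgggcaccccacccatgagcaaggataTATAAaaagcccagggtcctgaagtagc
Krtap3-1: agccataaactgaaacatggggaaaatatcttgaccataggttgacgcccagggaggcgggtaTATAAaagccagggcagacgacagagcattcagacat
Krtap3-2: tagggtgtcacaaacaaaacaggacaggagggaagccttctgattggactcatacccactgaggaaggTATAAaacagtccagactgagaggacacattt
Krtap3-3: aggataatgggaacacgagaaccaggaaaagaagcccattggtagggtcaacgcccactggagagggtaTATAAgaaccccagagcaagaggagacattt
Krtap4-1: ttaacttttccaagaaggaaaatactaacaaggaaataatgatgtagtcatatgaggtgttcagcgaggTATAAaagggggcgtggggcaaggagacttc
Krtap17-1: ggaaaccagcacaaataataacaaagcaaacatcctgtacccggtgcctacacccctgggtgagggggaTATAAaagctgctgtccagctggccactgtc
Krtap5-3: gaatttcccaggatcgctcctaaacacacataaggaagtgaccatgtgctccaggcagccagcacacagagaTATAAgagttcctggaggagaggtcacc
Krtap19-3: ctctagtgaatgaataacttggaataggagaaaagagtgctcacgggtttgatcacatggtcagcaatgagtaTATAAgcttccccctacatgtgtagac
Their positions in GRCm38.p6 were Krtap8-1 at chr16:89487953-89488052 on the minus strand, Krtap11-1 at chr16:89571184-89571283 on the minus strand, Krtap3-1 at chr11:99566631-99566730 on the minus strand, Krtap3-2 at chr11:99556854-99556953 on the minus strand, Krtap3-3 at chr11:99550864-99550963 on the minus strand, Krtap4-1 at chr11:99628240-99628339 on the minus strand, Krtap17-1 at chr11:99993995-99994094 on the minus strand, Krtap5-3 at chr7:142201264-142201363 on the plus strand and Krtap19-3 at chr16:88878039-88878138 on the minus strand. In these 9 the TATAA began between 27 and 37 bases before the start. The 3 Krtap3 genes are neighbours on chromosome 11, and Krtap3-2, which behaved apart from the rest, held the same TATAA letters as Krtap3-1 and Krtap3-3.

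Libraries held between 16.26 M and 28.78 M estimated counts and 22110 to 24283 detected genes. Libraries of one group correlated at 0.891 to 0.979 across genes. All 15 libraries carried the epidermal keratin Krt5 (2723.8 to 12773.3 counts-per-million, CPM, scaled by TMM). The labels do not say that libraries came from separate animals, so p-values measure the spread between these samples. Values that were not whole numbers made up 41.09 to 59.34% of the non-zero values in treated libraries and 25.19 to 28.51% in vehicle libraries. Among the non-zero Krtap values this share was 89.5% in Combination 4 and 22.4 to 62.1% in syngeneic libraries. Of the 58 members, 37 share at least one 50-base word of transcript with another member, so reads may have been split between copies, most of all between Krtap3-2 and Krtap3-3 (41.3% of the words of Krtap3-3) and between Krtap31-1 and Krtap31-2 (39.1% of the words of Krtap31-1). A further limit is that 6 members overlap another gene (Krtap10-4, Krtap10-10, Krtap12-1, Krtap14, Krtap15 and Krtap24-1).

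The summed level of the 58 genes was low in all allogeneic and Wnt-C59 libraries and spread widely within the combination group. It was 8.38, 1.92, 22699.9 and 773.3 CPM in Combination 2, 3, 4 and 5. Wnt-C59 libraries held 14.4, 11.9, 13.1 and 16.5 CPM. Allogeneic libraries held 1.70, 4.49 and 1.41 CPM. Syngeneic libraries held 298.2, 11684.6, 7382.3 and 4846.4 CPM. The allogeneic and Wnt-C59 libraries lay below all 4 syngeneic libraries, while the combination group spanned both ends, with Combination 4 above and Combination 2 and 3 below all of them. The group means were 5870.9 ± 11225.2 CPM for the combination, 14.0 ± 2.00 CPM for Wnt-C59, 2.53 ± 1.70 CPM for allogeneic and 6052.9 ± 4762.9 CPM for syngeneic skin (SD, n = 4, 4, 3 and 4). Without Combination 4, the combination mean was 4.32% of the syngeneic mean, against 97.0% with it. Krtap reads made up 2.07% of all counts in Combination 4 and between 0.0350 and 1.31% in syngeneic libraries. In bulk skin, fewer shaft-forming cells and less RNA per cell cannot be told apart.

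**Figure D1:**
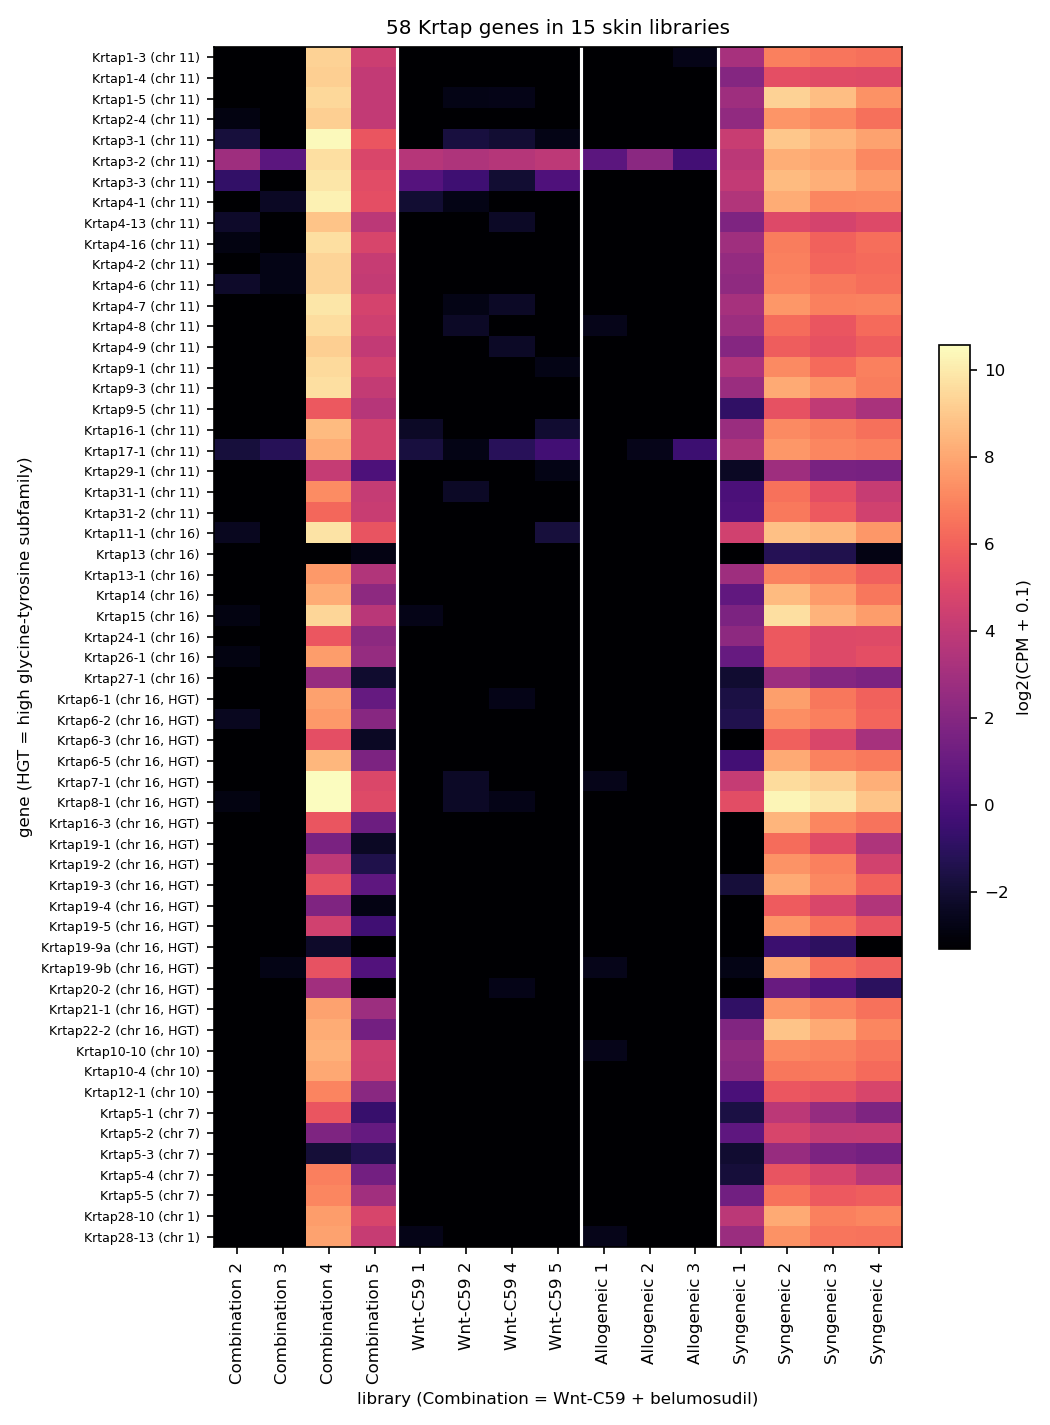
Level of the 58 Krtap genes (down the page, by chromosome) in the 15 libraries (across), as log2(CPM + 0.1) in colour, with HGT marking high glycine-tyrosine members. Combination 4 and Syngeneic 2, 3 and 4 are bright, Combination 5 and Syngeneic 1 are intermediate, and the other libraries are dark except for the row of Krtap3-2.

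Allogeneic skin held almost no Krtap RNA. Of the 58 members, 50 were at 0 counts in each of the 3 allogeneic libraries, 6 had 1 to 3 counts over all 3, and Krtap3-2 (110 counts) and Krtap17-1 (12 counts) had more. A count of 0 in a library still allows 3 counts, or 0.169 to 0.182 CPM here. All 58 members had more than 3 counts over the 4 syngeneic libraries. For 48 of 58 members every allogeneic library lay below every syngeneic one, which held for 19.9% of the 18651 genes tested. The other 10 were 9 members that were also at 0 in Syngeneic 1, and Krtap19-9b, which had 1 count in both Allogeneic 1 and Syngeneic 1. By edgeR's quasi-likelihood test with a Benjamini-Hochberg adjusted p under 0.05, 14 of the 56 members that passed the low-count filter fell and 0 rose, against 15.1% and 14.6% of all tested genes. Nearly all members were at or near 0 in allogeneic skin and passed the filter through libraries of other groups. A rise could therefore hardly have been found, and the shares of all genes are no measure of the direction. The 2 members that did not pass, Krtap13 and Krtap19-9a, reached at most 0.325 and 0.603 CPM in any library. The median log2 fold change of the tested members was -13.41, against -0.07 for all tested genes, and it depends on the prior count because most members were at 0.

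Among the high glycine-tyrosine genes, Krtap8-1 and Krtap7-1 encode small proteins of the shaft cortex and had the highest syngeneic levels per transcript length (means of 1191.5 and 668.2 CPM per kilobase). Krtap8-1 was at 0 CPM in Allogeneic 1, 2 and 3, against 36.7, 1278.4, 945.8 and 474.7 CPM in Syngeneic 1 to 4. It was at least 3864.0-fold lower in allogeneic skin (adjusted p = 0.037 by edgeR, lower in 3 of 3 libraries). Krtap7-1 had 0.0607, 0 and 0 CPM in allogeneic libraries, against 17.8, 750.8, 577.5 and 313.6 CPM in syngeneic libraries. From its single allogeneic count, its syngeneic to allogeneic ratio was 20491.7 (95% counting interval 3790.7 to 834217.1, adjusted p = 0.028 by edgeR). In both genes the groups did not overlap and Syngeneic 1 was the lowest of its group. These were the only 2 of 16 tested high glycine-tyrosine members that passed the test. Krtap22-2, Krtap6-5 and Krtap19-3 were at 0 CPM in allogeneic skin and averaged 219.1 ± 196.4, 126.0 ± 112.8 and 120.9 ± 120.5 CPM in syngeneic skin (SD, n = 4), with adjusted p of 0.11, 0.13 and 0.096 by edgeR.

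Of the other 40 tested members, 12 fell. The high-sulfur genes among them were Krtap1-5, Krtap3-1, Krtap3-2, Krtap3-3, Krtap11-1, Krtap15 and Krtap16-1. Krtap3-1 was at 0 CPM in the 3 allogeneic libraries, against 18.8, 496.2, 350.7 and 239.5 CPM in the syngeneic ones (at least 1560.9-fold lower, adjusted p = 0.042 by edgeR). Krtap11-1 was likewise at 0 CPM, against 23.3, 433.1, 352.2 and 188.0 CPM (at least 1407.8-fold lower, adjusted p = 0.039 by edgeR). The ultra-high-sulfur genes that fell were Krtap4-8, Krtap5-2, Krtap5-3 and Krtap17-1, and Krtap28-13 completed the 12. Krtap17-1, known from the hair cuticle in human, had 0, 0.0599 and 0.620 CPM in allogeneic libraries, against 10.2, 192.5, 135.5 and 119.9 CPM in syngeneic libraries (log2 fold change -8.90, SE 2.67, adjusted p = 0.026 by edgeR). Krtap5-3 had the smallest adjusted p of the family (0.014 by edgeR) with one of its lowest levels, 0 CPM in all allogeneic libraries against 0.138, 6.17, 3.20 and 2.56 CPM in syngeneic ones. Krtap4-1, with 0 CPM in all allogeneic libraries against 11.0, 282.1, 134.5 and 139.0 CPM in syngeneic ones, missed the threshold (adjusted p = 0.053 by edgeR).

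The number of members that fell differed between settings. It was 52 by DESeq2 (27.8% of all genes called in either direction), 39 with the 2 groups fitted alone, 4 of 58 with no filter on low counts (7.97% of all genes lower) and 2 by limma-voom (29.1%). It was 1 when any of Allogeneic 1, 2 or 3 was left out and 3 when any of Syngeneic 2, 3 or 4 was left out. Syngeneic 1 was the lowest syngeneic library for all 58 members, tied at 0 with Syngeneic 4 for Krtap19-9a. Syngeneic 2 was the highest for 55, and leaving out Syngeneic 1 gave 15. For the 2 groups alone and for fits without 1 library, the share of all genes was not taken, here and below.

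Wnt-C59 libraries held a little more Krtap RNA than allogeneic ones, and nearly all of it came from Krtap3-2. By edgeR, 0 of 56 tested members passed in either direction, 0 had an unadjusted p under 0.05, and limma-voom called 0. Of all genes, edgeR called 50.8% (24.6% higher and 26.2% lower) and limma-voom 50.1%. DESeq2 called 13 members higher and 2 lower, and 43.3% of all genes. The fit of the 2 groups alone could test 2 members and called both higher. The other 54 entered through libraries of other groups and were at or near 0 in both groups here, so the count of 0 says nothing of them. Of the 58 members, 37 were at 0 in all 4 Wnt-C59 libraries, 14 had 1 to 3 counts in all and 7 had more (Krtap3-1, Krtap3-2, Krtap3-3, Krtap4-1, Krtap11-1, Krtap16-1 and Krtap17-1). Libraries of the 2 groups did not overlap for Krtap3-2 and Krtap3-3 alone, both higher, against 26.4% of all tested genes.

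Krtap3-2, a high-sulfur member, was the only one detected in all 15 libraries. It had 12.7, 10.4, 11.9 and 14.4 CPM in Wnt-C59 libraries, against 1.40, 4.43 and 0.733 CPM in allogeneic libraries. The means of 12.3 ± 1.64 and 2.19 ± 1.97 CPM (SD, n = 4 and 3) differ 5.64-fold, with a log2 fold change of 2.50 (SE 1.78, adjusted p = 0.27 by edgeR). The highest allogeneic library stayed under the lowest Wnt-C59 library, and the p missed the threshold in the fit of all groups and passed it in the fit of these 2 groups alone. Krtap3-2 made up 86.8 to 90.9% of all Krtap CPM in Wnt-C59 libraries, 52.0 to 98.7% in allogeneic libraries and 2.57 to 4.77% in syngeneic libraries. Its level in Wnt-C59 skin was close to that of the lowest syngeneic library (14.2 CPM in Syngeneic 1), where Krtap3-1 had 18.8 CPM. In Wnt-C59 libraries Krtap3-1 had 0, 0.198, 0.156 and 0.0475 CPM. Krtap3-3, named after its values were seen, had 1.18, 0.645, 0.156 and 0.998 CPM in Wnt-C59 libraries and 0 CPM in the 3 allogeneic libraries (at least 4.21-fold higher, adjusted p = 0.40 by edgeR). Since 28.9% of the 50-base words of Krtap3-2 occur in Krtap3-3, and all 11 non-zero values of Krtap3-3 were not whole, reads shared by both genes cannot be told apart here. Without Krtap3-2, the summed level was 1.20 to 2.19 CPM in Wnt-C59 libraries and 0.0599 to 0.677 CPM in allogeneic libraries.

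**Figure D2:**
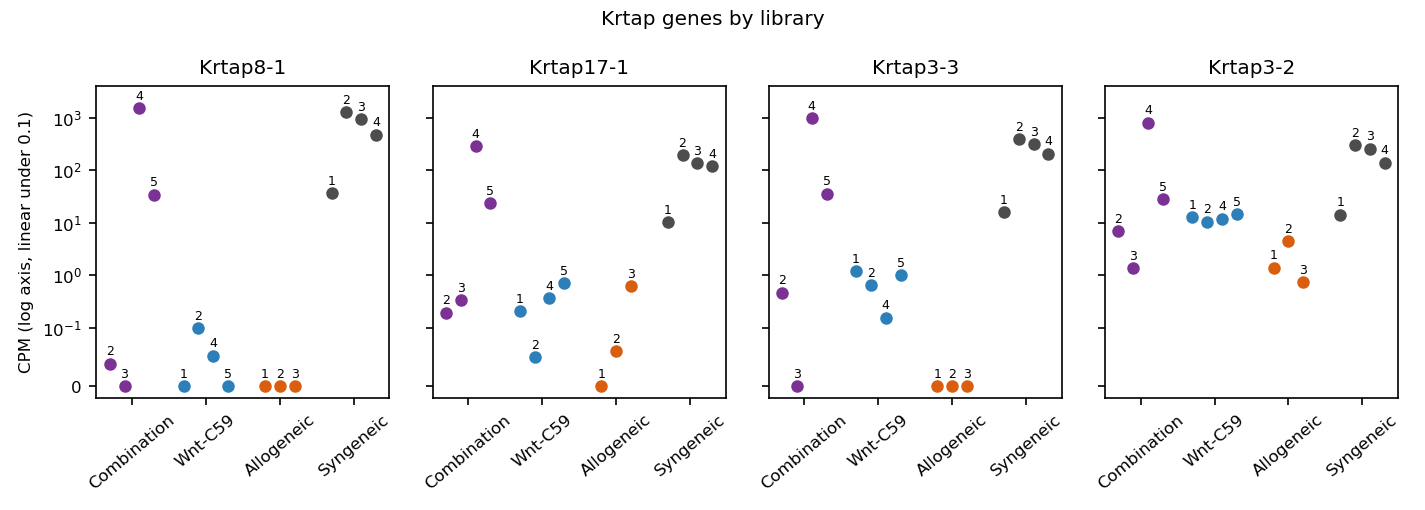
Level of Krtap8-1, Krtap17-1, Krtap3-3 and Krtap3-2 in each library, in CPM on a log axis that is linear under 0.1, with 1 point per library labelled by its number. Krtap3-2 stays at 10.4 to 14.4 CPM in all 4 Wnt-C59 libraries, where Krtap8-1 has at most 0.0992 CPM.

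The combination group divided into 2 libraries rich in Krtap RNA and 2 with little, so its comparison with allogeneic skin rests on Combination 4 and 5. Krtap8-1 had 0.0388, 0, 1525.8 and 34.0 CPM in Combination 2, 3, 4 and 5, against 0 CPM in the 3 allogeneic libraries. Krtap4-1 had 0, 0.0962, 1209.8 and 38.2 CPM in these combination libraries and Krtap17-1 0.194, 0.337, 289.1 and 23.4 CPM. Combination 2 and 3 held at most 0.337 CPM of any of these 3 genes, and the highest allogeneic value was 0.62 CPM (Krtap17-1). By edgeR, 21 of 56 tested members rose against allogeneic skin and 0 fell, against 27.1% and 27.4% of all tested genes. As nearly all members were at or near 0 in allogeneic skin and passed the filter through other libraries, a fall could hardly have been found. The 5 with the smallest adjusted p were Krtap4-8, Krtap7-1, Krtap28-13, Krtap17-1 and Krtap3-2 (0.014 to 0.021 by edgeR). Krtap17-1 averaged 78.3 ± 141.0 CPM in the combination and 0.227 ± 0.342 CPM in allogeneic skin (SD, n = 4 and 3, log2 fold change 8.35, SE 2.63, adjusted p = 0.018 by edgeR). In 1 of 58 members did all combination libraries lie above all allogeneic ones, against 25.6% of all tested genes. Of the 21 members, 15 lie on chromosome 11, where 23 were tested, and 4 on chromosome 16, where 23 were tested. The count was 8 without Combination 4, 47 by DESeq2 (47.0% of all genes called) and 0 by limma-voom (53.6%). It was 0 without Allogeneic 1 and 1 without Allogeneic 2 or Allogeneic 3. With the 2 groups fitted alone 2 members could be tested and 0 passed.

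Against Wnt-C59 skin, 0 of 56 tested members passed in the combination by edgeR, while 0.231% of all genes did. An unadjusted p under 0.05 was found for 48 members by edgeR, and the share of all genes with such a p was not taken. The limma-voom fit called 0 (0.322% of all genes) and DESeq2 called 44, all higher (8.19% of all genes). In Wnt-C59 skin 37 members were at 0 in every library and 14 had 1 to 3 counts in all. Such members passed the filter through other libraries, so a fall could hardly have been found here either. With the 2 groups fitted alone 2 members could be tested and 0 passed. Krtap4-8 had the smallest adjusted p (0.092 by edgeR) with 0, 0, 798.6 and 22.4 CPM in Combination 2, 3, 4 and 5, against 0, 0.0992, 0 and 0 CPM in Wnt-C59 1, 2, 4 and 5. The summed level of 2 combination libraries (8.38 and 1.92 CPM) lay below all 4 Wnt-C59 libraries and that of the other two lay above all of them. Krtap3-2 itself had 6.94 and 1.35 CPM in Combination 2 and 3, below the 10.4 to 14.4 CPM of Wnt-C59 libraries.

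Wnt-C59 skin also held little Krtap RNA beside syngeneic skin, a comparison that shares the syngeneic libraries with that of allogeneic skin. By edgeR, 39 of 56 tested members fell and 0 rose, against 27.0% and 26.0% of all tested genes. Most members were at or near 0 in Wnt-C59 skin and passed the filter through other libraries, so a rise could hardly have been found here either. For 48 of 58 members the libraries did not overlap (26.0% of all tested genes). Krtap8-1 had 0, 0.0992, 0.0521 and 0 CPM in Wnt-C59 libraries, against 36.7 to 1278.4 CPM in syngeneic ones (adjusted p = 0.012 by edgeR). Krtap3-2 was not called (12.3 ± 1.64 CPM in Wnt-C59 skin against 176.9 ± 128.1 CPM in syngeneic skin, SD, n = 4 each, adjusted p = 0.063 by edgeR), and its Wnt-C59 5 value of 14.4 CPM overlapped Syngeneic 1. The count was 22 of 58 with no filter on low counts (16.1% of all genes lower) and 4 by limma-voom (52.9% of all genes called). It was 13 to 21 when any Wnt-C59 library, Syngeneic 2 or Syngeneic 4 was left out.

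In the combination against syngeneic skin, 1 of 56 tested members fell and 0 rose by edgeR, against 27.2% and 26.9% of all genes. That member, Krtap5-3, had 0, 0, 0.17 and 0.317 CPM in Combination 2, 3, 4 and 5, against 0.138, 6.17, 3.20 and 2.56 CPM in syngeneic libraries (log2 fold change -4.60, SE 1.25, adjusted p = 0.012 by edgeR). It fell, though 2 combination libraries exceeded Syngeneic 1, and the call was lost when any of Syngeneic 2, 3 or 4 was left out and with the 2 groups fitted alone. Without Combination 4, 18 members fell, without Syngeneic 1 the count was 2, and limma-voom on all libraries called 22, all lower (55.7% of all genes called). A p that misses the threshold with this spread does not show that levels were alike.

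Combination 4 exceeded every syngeneic library in some subfamilies and lay within their range in others, below their median for the Krtap19 genes. It lay above every syngeneic library for 39 of 58 members and within their range for the other 19. It was above all of them for 32 of the 41 other members, for 7 of the 17 high glycine-tyrosine members and for 22 of the 23 members on chromosome 11. The share of all genes for which Combination 4 lay above every syngeneic library was not taken. These counts therefore cannot be set against the library as a whole. All 8 Krtap4 genes were above, with log2 ratios to the syngeneic median of 2.84 (Krtap4-6) to 4.03 (Krtap4-13). Krtap4-13 had 472.0 CPM in Combination 4, against 3.30, 31.8, 25.8 and 31.9 CPM in Syngeneic 1 to 4. Krtap1-4 had 581.3 CPM in Combination 4, against 3.76, 38.4, 34.8 and 33.6 CPM in syngeneic libraries, the highest ratio of the family (4.08 on the log2 scale). In contrast, 0 of 7 Krtap19 genes were above, with log2 ratios between -2.86 (Krtap19-1) and -0.52 (Krtap19-9a). Krtap19-3 had 43.5 CPM in Combination 4, against 0.183, 280.3, 139.4 and 63.8 CPM in syngeneic libraries. Krtap16-3 had 47.2 CPM there, against 0, 340.0, 133.7 and 93.0 CPM. The Krtap5 genes divided among themselves, since Krtap5-1 had 46.7 CPM in Combination 4 against 0.229 to 14.1 CPM in syngeneic libraries, while Krtap5-2 had 3.28 CPM against 1.51 to 27.3 CPM. These ratios describe 1 library and were not tested. Of the genes in this paragraph, Krtap1-4, Krtap4-6, Krtap4-13, Krtap5-1, Krtap16-3, Krtap19-1 and Krtap19-9a were chosen after their values were seen. The Krtap4 genes share up to 17.9% of their 50-base words with other members (Krtap4-8), and the share of values that were not whole differed between treated and vehicle libraries as given above, so their part in these ratios was not tested.

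The remaining subfamilies differed in where Combination 4 and 5 fell among the syngeneic libraries. Krtap6-5, the highest of the 4 high glycine-tyrosine Krtap6 genes, had 0, 0, 360.5 and 3.17 CPM in Combination 2, 3, 4 and 5, against 0.734, 274.3, 125.4 and 103.6 CPM in Syngeneic 1 to 4. Combination 4 was the highest library here and Combination 5 lay nearest to Syngeneic 1. Krtap22-2 had 287.7 and 2.53 CPM in Combination 4 and 5, against 3.53, 461.7, 276.4 and 134.7 CPM in syngeneic libraries, so Combination 5 was under all of them. The high-sulfur Krtap2-4 had 0.0388, 0, 588.7 and 16.3 CPM in Combination 2, 3, 4 and 5, against 5.14, 180.8, 140.2 and 87.3 CPM in syngeneic libraries. Of the ultra-high-sulfur Krtap9 genes, Krtap9-3 had 815.6 and 16.8 CPM in Combination 4 and 5, against 6.65, 272.3, 177.1 and 112.3 CPM. Krtap10-10, one of a subfamily known from the hair cuticle in human, had 320.0 and 21.0 CPM in Combination 4 and 5, against 4.91 to 140.6 CPM in syngeneic libraries. In these 3 genes Combination 4 exceeded every syngeneic library and Combination 5 was between Syngeneic 1 and the other syngeneic libraries. Krtap31-1 had 149.6 and 17.6 CPM in Combination 4 and 5, against 0.917, 89.7, 38.2 and 17.9 CPM in syngeneic libraries, so Combination 5 was close to Syngeneic 4. Krtap28-10, on chromosome 1, had 215.3 and 28.0 CPM in Combination 4 and 5, against 13.8, 270.7, 118.1 and 136.5 CPM in syngeneic libraries. All 7 of these genes were at 0 CPM in the 3 allogeneic libraries except Krtap10-10, with 0.0607 CPM in Allogeneic 1, and in Wnt-C59 libraries only Krtap31-1 was seen, at 0.0992 CPM in Wnt-C59 2.

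**Figure D3:**
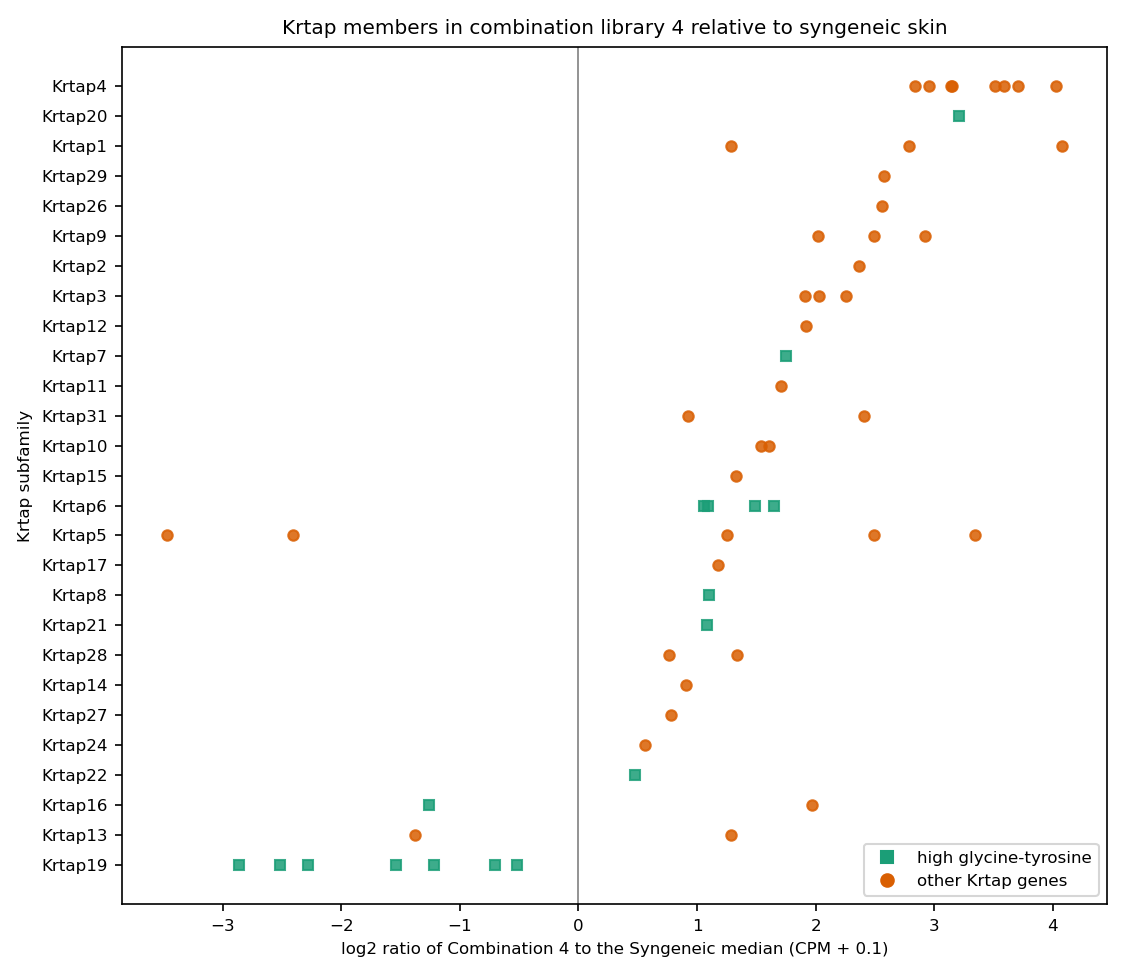
Log2 ratio of Combination 4 to the median of the 4 syngeneic libraries (CPM + 0.1, horizontal axis) for each of the 58 members, by subfamily (vertical axis, ordered by the subfamily's median). Krtap4 members lie at 2.84 to 4.03 and Krtap19 members at -2.86 to -0.52.

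The make-up of the Krtap RNA followed the same split across libraries. High glycine-tyrosine members held 20.1% of Krtap CPM in Combination 4 and 11.4% in Combination 5, against 20.1, 40.7, 39.7 and 32.3% in Syngeneic 1 to 4. The Krtap4 genes held 27.1% and 23.2% in Combination 4 and 5, against 17.2, 8.53, 8.11 and 13.8% in Syngeneic 1 to 4. The Krtap19 genes held 0.581% and 0.474%, against 0.0769, 8.79, 6.68 and 4.48%. In all 3 shares Combination 4 and 5 were nearer to Syngeneic 1, the syngeneic library with the least Krtap RNA, than to Syngeneic 2 and 3. Combination 5 lay within the syngeneic range for 54 of 58 members and below it for 4, and the share of all genes was not taken. Across the 58 members, levels in Combination 5 ranked most like those in Syngeneic 1 (Spearman rho 0.93), those in Combination 4 correlated at 0.88 with both Combination 5 and Syngeneic 1, and those in Syngeneic 2 correlated at 0.96 with Syngeneic 3 and 0.52 with Syngeneic 1. For Combination 4 the order depended on the measure. By Pearson correlation of log2 levels it reached 0.87 with both Combination 5 and Syngeneic 4, and 0.79 with Syngeneic 1. These are descriptions over genes that share length and base composition between libraries.

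The summed hair shaft keratins moved with the Krtap sum across libraries, while other genes of the shaft did so only in part. The 15 hair shaft keratins analysed (Krt85 is not analysed here) summed to 6.28, 4.67, 14335.5 and 850.1 CPM in Combination 2, 3, 4 and 5, 6.84 to 10.8 CPM in Wnt-C59, 2.00 to 5.21 CPM in allogeneic and 578.7 to 6677.9 CPM in syngeneic libraries. By edgeR, 11 of the 15 fell in allogeneic against syngeneic skin (15.1% of all tested genes), and 12 rose in the combination against allogeneic skin (27.1%). Most of these keratins were at or near 0 in allogeneic skin, so the opposite calls could hardly have been found. The shares of all genes are therefore no measure of the direction. The keratin sums of Combination 2 and 3 stayed near the allogeneic ones, far below those of Combination 4 and 5. Krt33a had 0, 0.0962, 1861.5 and 86.9 CPM in Combination 2, 3, 4 and 5, 0.0521 to 0.298 CPM in Wnt-C59 libraries and 0 CPM in all allogeneic libraries, against 46.2, 913.7, 699.1 and 408.7 CPM in syngeneic libraries. The calcium-binding protein gene S100a3, known from the hair cuticle, had 1.75, 1.88, 1267.8 and 161.7 CPM in the combination libraries, against 200.4 to 997.7 CPM in syngeneic libraries. Krt75, of the same list, had 143.3 and 184.6 CPM in Combination 2 and 3 and 78.3 to 259.2 CPM in Wnt-C59 libraries. In allogeneic libraries Krt75 had 0.898 to 5.3 CPM, so it did not follow the Krtap sum. Selenbp1 had 46.1, 19.3, 48.5 and 53.4 CPM in Combination 2, 3, 4 and 5. The shaft keratin Krt84 had 1.21 to 4.49 CPM in allogeneic libraries and 0.321 CPM in Syngeneic 1. Selenbp1 and Krt84 were named after their values were seen. Median log2 fold changes of the tested shaft keratins were -12.01 for allogeneic against syngeneic skin and 11.62 for the combination against allogeneic skin, beside -0.07 and 0.01 for all genes.

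The ratio of Krtap RNA to inner root sheath RNA differed widely between libraries. The inner root sheath is the layer around the growing shaft and is made by other cells of the follicle. Its 11 genes summed to 5238.3 CPM in Combination 5 and 7797.8 CPM in Syngeneic 1, beside 42457.5 CPM in Combination 4 and 12924.8 to 23935.5 CPM in Syngeneic 2, 3 and 4. Krtap CPM per inner root sheath CPM was 0.341, 0.0575, 0.535 and 0.148 in Combination 2, 3, 4 and 5, 0.204 to 0.348 in Wnt-C59 libraries and 0.00925 to 0.0466 in allogeneic libraries, against 0.0382 in Syngeneic 1 and 0.315 to 0.488 in Syngeneic 2 to 4. Within syngeneic skin the ratio was therefore lowest in the library with the least Krtap RNA. Per shaft keratin CPM, the Krtap level was 1.33, 0.412, 1.58 and 0.910 in Combination 2, 3, 4 and 5, 1.10 to 2.42 in Wnt-C59 libraries and 0.410 to 0.862 in allogeneic libraries, against 0.515 in Syngeneic 1 and 1.25 to 1.75 in Syngeneic 2 to 4. Krtap3-2 made up 82.9 and 70.0% of Krtap CPM in Combination 2 and 3, 86.8 to 90.9% in Wnt-C59 libraries and 52.0 to 98.7% in allogeneic libraries. Both ratios in all these libraries mostly reflect that 1 gene and do not describe the family. Of the shaft keratin sums of 6.84 to 10.8 CPM in Wnt-C59 libraries, Krt32 held 3.37 to 7.93 CPM. Krt71, an inner root sheath keratin, had 0.659, 0.914, 15144.0 and 2001.7 CPM in Combination 2, 3, 4 and 5, against 2365.0, 6521.6, 6650.5 and 3738.5 CPM in syngeneic libraries. The inner root sheath sum was 37.7 to 70.6 CPM in Wnt-C59 and 96.4 to 152.3 CPM in allogeneic libraries. Tgm3, a cross-linking enzyme that the epidermis also makes, held most of these sums, with 27.8 to 58.9 CPM in Wnt-C59 and 84.4 to 133.5 CPM in allogeneic libraries. In Combination 2 and 3 it had 16.7 and 24.1 CPM of inner root sheath sums of 24.6 and 33.5 CPM. Krt71 had 0.564 to 0.76 CPM in Wnt-C59 libraries and at most 0.169 CPM in allogeneic libraries. Tgm3 and Krt32 were named after their values were seen.

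The summed level of 8 transcription factors listed as hair shaft regulators varied less than that of the Krtap genes. The 8 regulators summed to 366.7, 323.4, 1284.6 and 748.5 CPM in Combination 2, 3, 4 and 5, 433.3 to 515.2 CPM in Wnt-C59, 167.2 to 286.2 CPM in allogeneic and 877.0 to 1213.4 CPM in syngeneic libraries. All 8 fell in allogeneic against syngeneic skin, and 7 rose in the combination and 3 in Wnt-C59 skin against allogeneic skin by edgeR, beside 15.1%, 27.1% and 24.6% of all tested genes. Gata3 and Vdr weighed heavily in the sum, with 158.0 and 120.7 of 366.7 CPM in Combination 2. Single factors could vary more than the sum. Msx2, named after its values were seen, ran from 0.607 CPM in Allogeneic 1 to 120.5 CPM in Combination 4. Gata3, a factor of the inner root sheath and epidermis, had 229.2, 204.9, 213.9 and 207.7 CPM in Wnt-C59 libraries, against 57.2, 124.3 and 105.4 CPM in allogeneic libraries (log2 fold change 1.16, SE 0.26, adjusted p = 0.002 by edgeR), without overlap. Hoxc13, a direct activator of hair keratin genes that was named after its values were seen, had 6.52, 9.91, 139.3 and 45.7 CPM in Combination 2, 3, 4 and 5, 9.48 to 14.7 CPM in Wnt-C59 and 0.850 to 4.45 CPM in allogeneic libraries, against 77.1 to 147.1 CPM in syngeneic libraries. Syngeneic 1, with the lowest Krtap sum of its group, held 77.1 CPM of Hoxc13, so the factor differed less than 2-fold within syngeneic skin while the Krtap sum ran over 298.2 to 11684.6 CPM.

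Markers of the follicle's stem cell region fell in allogeneic skin, and their sum was higher in every treated library than in any allogeneic one. The 8 bulge genes summed to 2823.1, 2665.7, 2710.6 and 2650.2 CPM in Combination 2, 3, 4 and 5, 3533.2 to 5923.9 CPM in Wnt-C59, 179.5 to 328.3 CPM in allogeneic and 1378.3 to 2805.5 CPM in syngeneic libraries. By edgeR, 7 of the 8 fell in allogeneic against syngeneic skin (15.1% of all tested genes). Against allogeneic skin, 7 of the 8 rose in the combination (27.1% of all tested genes) and 7 of the 8 in Wnt-C59 skin (24.6%). Krt15, a keratin of bulge and basal cells, had 3428.3, 4669.1, 5353.1 and 3146.1 CPM in Wnt-C59 libraries, against 64.1, 162.3 and 120.1 CPM in allogeneic libraries (log2 fold change 5.17, SE 0.42, adjusted p = 2e-06 by edgeR). Krt15 made up most of the bulge sum, and it had 2345.8, 2323.5, 2242.4 and 2155.8 CPM in Combination 2, 3, 4 and 5. Single bulge genes went both ways between the combination libraries rich in Krtap RNA and the others. Lhx2, Lgr5, Sox9 and Tcf7l1 were higher in the rich libraries, Krt15 and Fgf18 were lower, and Cd34 and Nfatc1 overlapped. Apart from Krt15 and Cd34, these genes were named after their values were seen. Lhx2 had 54.2, 35.0, 121.2 and 103.6 CPM in Combination 2, 3, 4 and 5, and Lgr5 had 4.15, 4.76, 22.7 and 16.7 CPM. Fgf18 had 12.2, 15.6, 5.14 and 9.5 CPM in the same libraries. Of the 8 interfollicular epidermis markers, 3 rose in allogeneic against syngeneic skin (14.6% of all tested genes), and their sum was 22829.4 to 39805.7 CPM in allogeneic and 9796.4 to 17425.5 CPM in syngeneic libraries. Other cell types moved with the group comparisons too. All 7 T cell markers rose in allogeneic against syngeneic skin (65.6 to 102.2 CPM against 8.44 to 13.3 CPM), and 5 of 8 sebaceous gland markers fell (374.6 to 1659.2 CPM against 2081.5 to 2947.1 CPM). Within the combination group, the skeletal muscle list summed to 26090.2, 9973.6, 2038.8 and 17.9 CPM in Combination 2, 3, 4 and 5, so the libraries rich in Krtap RNA held the least muscle RNA. The part of these differences in the Krtap results was not tested.

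**Figure D4:**
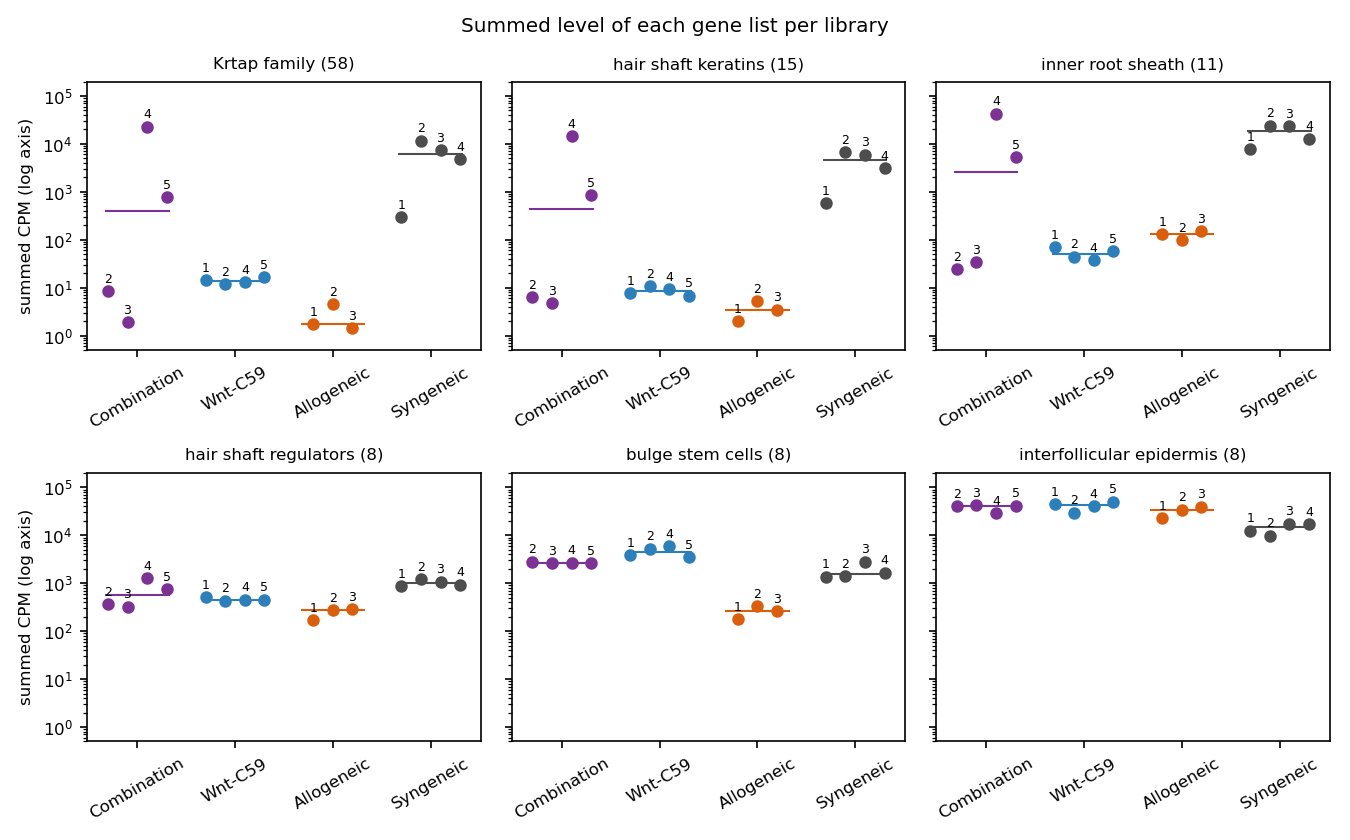
Summed CPM (log axis) of the Krtap family and of 5 gene lists in each library, with 1 point per library labelled by its number and a line at the group median. Krtap genes, hair shaft keratins and inner root sheath genes span orders of magnitude within the combination group, while the bulge list, mostly Krt15, stays at 2650.2 to 2823.1 CPM in all 4 of its libraries.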

How the data were processed

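Skin RNA was sequenced in 4 groups and 15 libraries. The authors deposited unscaled estimated counts, many with fractions, for each gene and library. The submitters' processing notes list FastQC, Trim Galore, HISAT2 and featureCounts and build GRCm39. Versions, strand setting and the treatment of reads that match several genes are not given in the sources used here. Symbols for 91.5% of identifiers, transcript lengths and GC content came from GENCODE M21 (GRCm38), which is not the build of the study.

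Estimated counts were rounded to whole numbers, where whole counts had been planned for, then tested in R 4.3.3 with edgeR 4.0.16. TMM scaling, filterByExpr (18651 genes kept) and a robust quasi-likelihood fit of all 15 libraries by group were used, with Benjamini-Hochberg adjusted p under 0.05 over all genes as the threshold. The steps were tested on simulated data. DESeq2 1.42.0, limma-voom (limma 3.58.1), RLE factors, no filter, the 2 groups alone, GC removal, a replicate block and leaving out each library were alternatives. CPM used TMM-scaled library sizes. A fold against a group at 0 is a lower bound at 3 counts per library, and 1 to 3 counts give a ratio with a 95% counting interval. Both cover counting error only. In log2 ratios of 1 library to a median, 0.1 CPM was added.

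The members and lists were chosen with earlier results of these data known. Named genes were the highest member of each subfamily by mean CPM, the 5 members with the smallest adjusted p per comparison and direction, and the 2 highest genes of each list. The text gives only part of them, and other genes are marked. No protein table was used. Numbers shared by allogeneic and syngeneic labels did not pair the libraries, since deviations of same-numbered libraries correlated at -0.07, -0.09 and -0.03.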

Additional observations from a re-analysis of the deposited data

Results flagged for a closer look

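Among the 4 combination libraries, Combination 4 stood far from the nearest other library on the CPM scale. The gap, as a share of the group's whole range, was 0.966 for the summed Krtap level, 0.981 for the high glycine-tyrosine members, 0.962 for the other members, 0.941 for the hair shaft keratins and 0.877 for the inner root sheath genes, where a share above Dixon's 95% critical value for 4 samples counts as apart. The same held for 52 of 55 members with enough counts in the combination and for 1 of 58 in syngeneic skin, Krtap1-4, whose lowest library was Syngeneic 1 (a share of 0.859). The critical value is set so that chance puts about 1 in 20 groups apart when values follow a normal distribution. CPM were used without a log scale and span a wide range, so this rate need not hold here. Shares on a log scale were not taken. The members are not independent, because Combination 4 is the same library in all 52.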

How the results depend on the processing

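For 18 members, 37 tests (a member in a comparison) were repeated under each alternative that could be fitted. All repeats kept the direction, with 316 on the same side of the threshold, 129 that lost the call and 16 that gained it. In most of these tests 1 group was at or near 0, so a change of direction could hardly have been found. Many were also chosen for a small adjusted p in these data, so the kept direction tests little. Other members and comparisons were not repeated one by one. The number of members called moved more. For allogeneic against syngeneic skin it was 14, and 39 with the 2 groups alone, 52 by DESeq2, 2 by limma-voom, 4 with no filter and 55 with the replicate block, whose numbers do not pair the libraries. It was 1 to 15 with 1 library left out. For Wnt-C59 against allogeneic skin it was 0, with 15 by DESeq2 and 2 of 2 with the 2 groups alone, and 0 to 0 with 1 library left out. For the combination against allogeneic skin it was 21, with 47 by DESeq2, 0 by limma-voom and 0 of 2 with the 2 groups alone, and 0 to 31 with 1 library left out. For the combination against Wnt-C59 skin it was 0, with 44 by DESeq2, and 0 to 0 with 1 library left out. For Wnt-C59 against syngeneic skin it was 39, with 4 by limma-voom and 22 with no filter, and 13 to 34 with 1 library left out. For the combination against syngeneic skin it was 1, with 22 by limma-voom and 0 with the 2 groups alone, and 0 to 18 with 1 library left out. RLE factors, and GC removal where run, kept each count within 1.5 times. The 2 groups alone tested 2 members in the comparisons among allogeneic recipients, because few passed the filter. The cause of the other shifts was not tested. No share of all genes was taken for the 2 groups alone, the replicate block or fits without 1 library, so those counts cannot be set against all genes. No paired fit was possible for treated groups because their columns do not carry the numbers of the labels.

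As a percentage of the syngeneic mean, the summed level was 0.0419 in allogeneic skin (0 over the 6 members that were whole in every library, 0.0257 to 0.0607 with 1 library left out), 0.231 in Wnt-C59 skin (0.064 over those 6, 0.175 to 0.335) and 97.0 in the combination (22.8 over those 6, 4.32 to 140.6). Leaving out single libraries for this sum was added after seeing the data. With 3 counts allowed per library at 0, a member at 0 in an allogeneic library may still lie at up to 0.182 CPM.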
